A study of Homo sapiens with 3 samples.

Results

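The genes described here are 32 sterol and fatty acid synthesis genes and the regulators that control them. They were chosen by symbol, as listed genes of the SREBP-controlled synthesis pathways, and with earlier results of these data known. Their shares beside those of all tested genes are therefore description only. All 32 were present in the deposited table of 60930 entries, and all 32 averaged 1 TPM or more over the libraries, the minimum for comparison, which 13637 genes reached. By role they form 4 groups, with 7 enzymes of the mevalonate and isoprenoid steps, 11 enzymes from squalene on, 7 regulators and sterol binding proteins, and 7 enzymes of fatty acid synthesis, elongation and desaturation.

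RNA-seq was performed in PC3, an androgen-independent prostate cancer cell line derived from a bone metastasis, to examine how depletion of the deubiquitinase USP16 changes gene expression. There were 3 libraries of total RNA, 1 from cells with the vector control shCON, 1 from cells with the hairpin shUSP16#1 and 1 from cells with the hairpin shUSP16#2. Hairpins were carried by the pLKO.1 vector, and per the study's methods stable PC3 transformants were selected with puromycin, so each condition is 1 selected population. The control library also bears the label RFP, matched to shCON by its sample description, and the meaning of RFP is not given. The labels do not state that the 3 share the vector and the selection. With 1 library per condition no difference has a replicate check, so no test was made and no p-value is given. Levels are in TPM, a unit corrected for transcript length in which every library has the same total, so that levels of different genes can be set side by side, but the depth of the libraries is not known from it. Log2 changes are differences in log2(TPM + 1) from shCON and understate the change of genes at low levels.

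Cells make cholesterol from acetyl-CoA through the mevalonate pathway, which leads to farnesyl diphosphate, and then through squalene and a series of sterols. Fatty acids are made by ACACA and FASN from the same acetyl-CoA, which ACLY supplies, and are then elongated and desaturated. Most of these genes are targets of the SREBP transcription factors, which are made as membrane proteins, held in the endoplasmic reticulum by SCAP and the INSIG proteins when sterols are plentiful, and cleaved in the Golgi to release the active factor when sterols are scarce.

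USP16 itself was at 19.9 TPM in shCON, 3.50 TPM in shUSP16#1 and 1.08 TPM in shUSP16#2, so the hairpin libraries held 17.6% and 5.42% of the control level. The epithelial markers KRT8, KRT18, KRT19 and EPCAM summed to 2476, 2404 and 2630 TPM in shCON, shUSP16#1 and shUSP16#2. Within this sum EPCAM was at 273.5, 166 and 136 TPM and KRT19 at 507, 838 and 958 TPM, so these markers differed in opposite directions, and their part in the results was not tested. Of the 4 luminal prostate markers, KLK3 and KLK2 were listed at 0 in every library, and the list summed to between 2.72 and 5.08 TPM. The 7 markers of leukocytes, endothelium and stroma summed to between 1.12 and 1.76 TPM, with DCN at 0 in every library. Over all tested genes the median log2 change was -0.17 in shUSP16#1 and -0.37 in shUSP16#2, and lower genes tended to have transcripts poor in G and C. Values relative to these medians and with the GC trend removed are therefore given beside the results.

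The promoters of 4 members are shown because they differ in the motifs they hold and because their genes behaved differently in the hairpin libraries. MSMO1 and INSIG1 were among the members at least 2-fold lower in each hairpin library, while FDPS and SREBF2 differed little from shCON. The sequences are from RefSeq on GRCh38.p14, run 5′ to 3′ on the forward strand from 250 bases before the start to 50 after, and lie at chr4:165327419-165327718 (MSMO1), chr7:155297628-155297927 (INSIG1), chr1:155308616-155308915 (FDPS) and chr22:41832855-41833154 (SREBF2). Capitals mark matches, on either strand, to the sterol regulatory element TCACNCCAC, the E-box CACGTG, the CCAAT box CCAAT and the GC box GGGCGG. GC boxes that overlap each other appear as a single run.
MSMO1: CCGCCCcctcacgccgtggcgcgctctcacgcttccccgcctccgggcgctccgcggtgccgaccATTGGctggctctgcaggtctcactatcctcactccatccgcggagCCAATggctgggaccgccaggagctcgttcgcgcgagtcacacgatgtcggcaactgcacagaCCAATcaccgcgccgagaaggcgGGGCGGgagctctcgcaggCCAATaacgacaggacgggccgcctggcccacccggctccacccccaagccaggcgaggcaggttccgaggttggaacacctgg
INSIG1: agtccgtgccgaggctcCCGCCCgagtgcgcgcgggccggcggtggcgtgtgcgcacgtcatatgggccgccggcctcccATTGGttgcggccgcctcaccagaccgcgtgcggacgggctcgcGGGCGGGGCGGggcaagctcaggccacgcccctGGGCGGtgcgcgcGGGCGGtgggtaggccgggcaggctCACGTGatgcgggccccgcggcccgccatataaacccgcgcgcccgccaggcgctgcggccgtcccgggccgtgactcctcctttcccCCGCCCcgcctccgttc
FDPS: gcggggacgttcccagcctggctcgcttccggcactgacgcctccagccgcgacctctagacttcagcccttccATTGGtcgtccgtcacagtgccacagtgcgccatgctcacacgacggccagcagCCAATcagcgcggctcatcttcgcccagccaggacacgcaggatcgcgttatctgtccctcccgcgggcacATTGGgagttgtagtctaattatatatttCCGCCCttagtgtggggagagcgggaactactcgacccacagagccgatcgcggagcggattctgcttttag
SREBF2: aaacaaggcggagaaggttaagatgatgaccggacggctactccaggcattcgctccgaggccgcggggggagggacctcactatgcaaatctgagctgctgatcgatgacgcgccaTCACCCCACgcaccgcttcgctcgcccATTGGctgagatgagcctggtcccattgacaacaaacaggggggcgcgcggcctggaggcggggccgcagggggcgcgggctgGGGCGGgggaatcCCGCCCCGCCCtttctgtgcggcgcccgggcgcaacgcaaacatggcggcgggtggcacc

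The MSMO1 promoter held 4 CCAAT boxes and 2 GC boxes, and the FDPS promoter held 3 CCAAT boxes and 1 GC box. In INSIG1 there were 1 E-box, 1 CCAAT box and 6 GC boxes. SREBF2 was the 1 member with a match to the 9-letter sterol regulatory element, 133 bases before its start, beside 1 CCAAT box and 3 GC boxes. RefSeq promoters were found for 28 of the 32 members, 38 promoters in all, and none was listed for FDFT1, ACAT2, FASN and SQLE.

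CCAAT boxes and GC boxes were found in a larger share of the members than of all genes, which was not tested. At least 1 promoter held a CCAAT box in 21 of the 28 members (75%), against 39.7% of all 27305 genes and 42.1% of the 15842 protein-coding genes. Counted per promoter, promoters of 1 gene that overlap included, the shares were 65.8% of the members' 38 promoters and 34.6% of all 35116 promoters. In the first listed promoter of each member there were 43 CCAAT boxes, of which 36 lay between 40 and 200 bases before the start. GC boxes were present in 27 of the 28 members (96.4%), against 48.3% of all genes and 64.3% of protein-coding genes, and in 89.5% of member promoters against 44.95% of all promoters. The E-box was present in INSIG1, LSS, SC5D and SCAP (14.3% of members), against 8.77% of all genes and 10.9% of protein-coding genes, and in 13.2% of member promoters against 7.26% of all promoters. The 9-letter sterol regulatory element was present in 3.57% of members, 1.39% of all genes and 1.51% of protein-coding genes, and in 2.63% of member promoters and 1.13% of all promoters. Without its last base, as TCACNCCA, it was also found in MSMO1 and MVK, which made 3 members (10.7%) against 4.80% of all genes and 4.92% of protein-coding genes, and 7.89% of member promoters against 3.95% of all promoters. A match of letters is no evidence of binding, and its absence from this window is no evidence that a factor does not act on the gene.

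**Figure D1:**
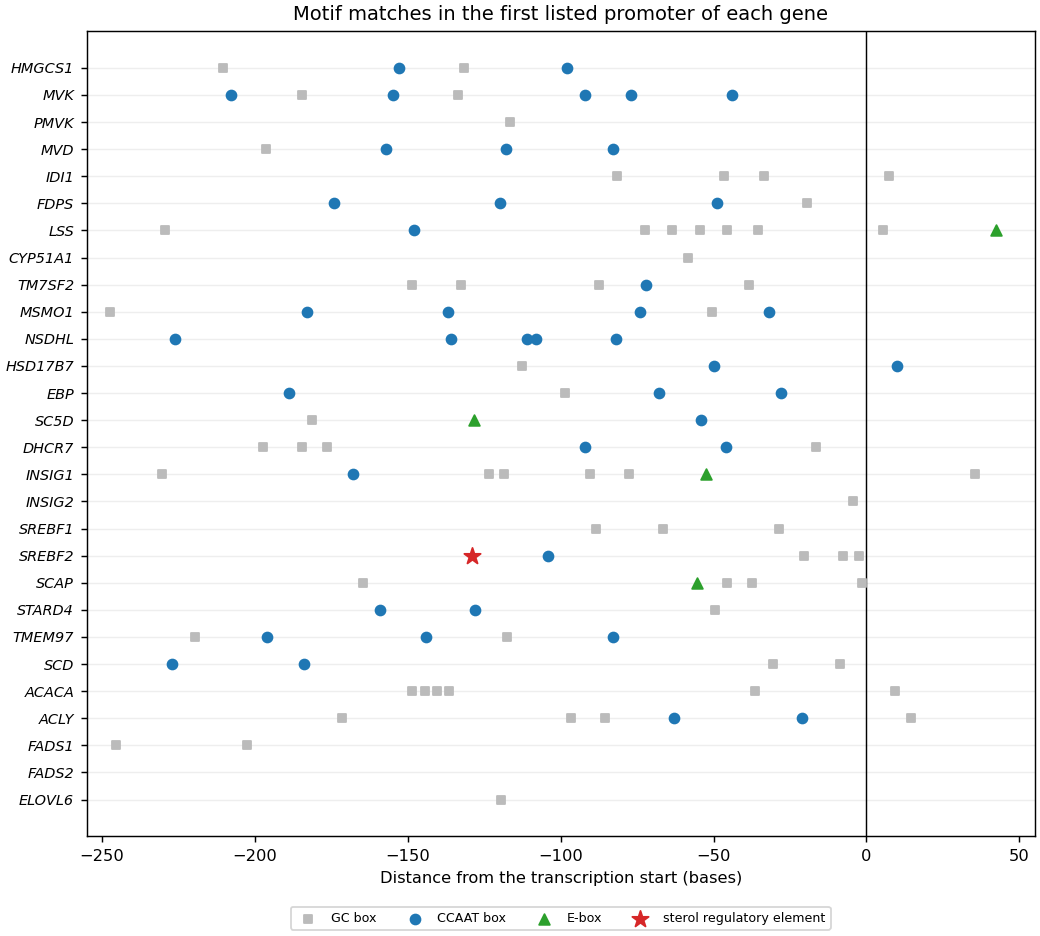
Motif matches in the first listed RefSeq promoter of each of the 28 members with one, by distance in bases from the transcription start (x axis). Circles are CCAAT boxes, squares GC boxes, triangles E-boxes and the star the sterol regulatory element of SREBF2, 133 bases before its start; of the 43 CCAAT boxes shown, 36 lay between 40 and 200 bases before the start.

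In the shUSP16#1 library 28 of the 32 genes had a lower level than in shCON, and 10 of them (31.3%) were at least 2-fold lower on the log2(TPM + 1) scale, against 5.79% of all tested genes. These were HMGCS1, IDI1, SQLE, CYP51A1, MSMO1, SC5D, INSIG1, STARD4, TMEM97 and SCD. None was at least 2-fold higher, against 2.83% of tested genes. The median log2 change of the members was -0.64, beside -0.17 for all tested genes. In bulk RNA, fewer cells of a type and less RNA per cell cannot be told apart.

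The shUSP16#2 library also had 28 of the 32 genes below shCON, and 11 (34.4%) were at least 2-fold lower, against 19.5% of all tested genes. They were HMGCS1, IDI1, SQLE, CYP51A1, MSMO1, SC5D, DHCR7, INSIG1, STARD4, TMEM97 and ACACA. The 1 gene at least 2-fold higher was ELOVL6, against 2.8% of tested genes. The median log2 change of the members was -0.52, beside -0.37 for all tested genes. Both comparisons share the shCON library, so a low or high value in shCON moves a gene the same way in each.

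The members' shares have to be read against the shift of the whole transcriptome, given by the median change of tested genes. With that median set to 0, 8 members (25%) were at least 2-fold lower in shUSP16#1 against 3.21% of tested genes, and none was higher against 4.44%. In shUSP16#2 on that scale 7 members (21.9%) were at least 2-fold lower against 7.76% of tested genes. TM7SF2 and ELOVL6 (6.25%) were at least 2-fold higher against 6.45%, a share near the background. The 7 genes were HMGCS1, IDI1, SQLE, CYP51A1, MSMO1, SC5D and STARD4, and the 8 in shUSP16#1 were these and INSIG1. Of the 32 members, 25 lay below the median of tested genes in shUSP16#1 and 18 in shUSP16#2, with 7 and 14 above it, where the background is 50% on either side in each library. The centred median of the members was -0.47 in shUSP16#1 and -0.15 in shUSP16#2. At a threshold of 1.5-fold, 17 members (53.1%) were lower in shUSP16#1 against 23.2% of tested genes and 1 (3.13%), TM7SF2, was higher against 8.72%. For shUSP16#2 the counts were 15 lower (46.9%) against 38.5% and 2 higher (6.25%), TM7SF2 and ELOVL6, against 7.32%, so both shares were nearer the background.

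**Figure D2:**
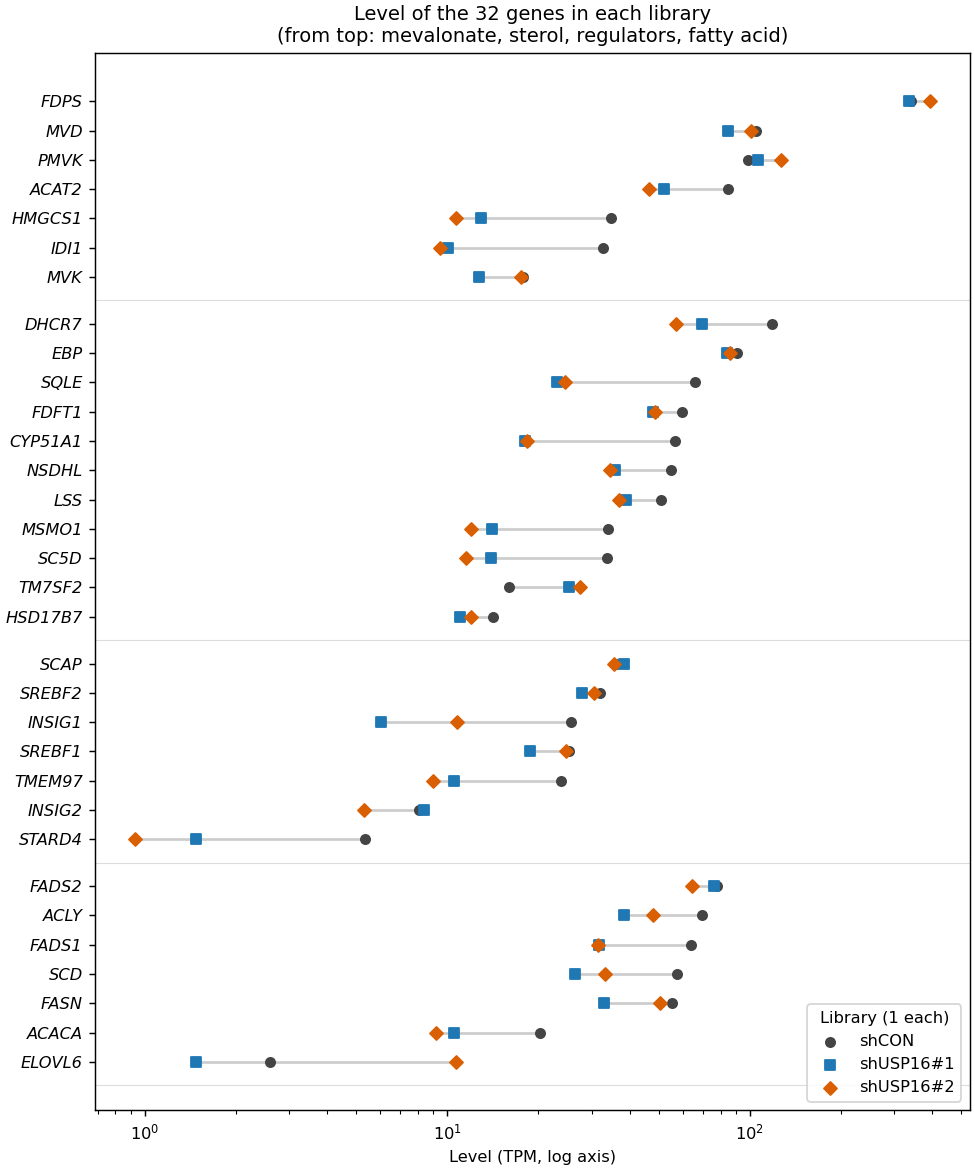
Level of each of the 32 genes in TPM (x axis, log scale) in the shCON (circle), shUSP16#1 (square) and shUSP16#2 (diamond) libraries, 1 library each, with genes grouped by role and ordered by their shCON level. The level of FDPS was 341, 335 and 393 TPM, that of IDI1 was 32.8, 10.1 and 9.43 TPM, and ELOVL6 is the 1 gene with shCON between far-apart hairpin libraries, at 2.60, 1.48 and 10.7 TPM.

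The members were well expressed in PC3 cells. In shCON their levels ran from 2.60 TPM for ELOVL6 to 341 TPM for FDPS, and 29 of the 32 lay above the median tested gene (12.2 TPM). In the hairpin libraries 27 and 30 members lay above the median tested gene, which was at 10.4 TPM in shUSP16#1 and 8.63 TPM in shUSP16#2. The summed level of the 32 genes was 1811 TPM in shCON, 1324 TPM in shUSP16#1 and 1437 TPM in shUSP16#2, or 73.1% and 79.4% of shCON.

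Among the mevalonate and isoprenoid enzymes, HMGCS1 and IDI1 were the members far below shCON in the hairpin libraries. HMGCS1, which condenses acetoacetyl-CoA with acetyl-CoA to HMG-CoA, was at 34.9 TPM in shCON, 12.9 TPM in shUSP16#1 and 10.7 TPM in shUSP16#2. IDI1, which interconverts isopentenyl and dimethylallyl diphosphate, was at 32.8, 10.1 and 9.43 TPM. The hairpin libraries therefore held 37.1% and 30.6% of the control level of HMGCS1, and 30.7% and 28.7% of that of IDI1. Their log2 changes were -1.36 and -1.62 for HMGCS1 and -1.61 and -1.70 for IDI1 in shUSP16#1 and shUSP16#2.

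ACAT2, the cytosolic thiolase that makes acetoacetyl-CoA, was lower in each hairpin library by less than 2-fold, at 84.3, 52.1 and 46.4 TPM. MVK, which phosphorylates mevalonate, was at 17.9 TPM in shCON and 17.5 TPM in shUSP16#2, with 12.7 TPM in shUSP16#1. MVD, the mevalonate diphosphate decarboxylase, was at 105, 84.7 and 101 TPM, so its lowest level too was in shUSP16#1. PMVK, the next kinase after MVK, was above shCON in each hairpin library, at 98.2, 106 and 127 TPM. FDPS, which makes farnesyl diphosphate and whose promoter holds 3 CCAAT boxes, was the most abundant member, at 341, 335 and 393 TPM. The level of FDPS was 10.4 times that of IDI1 in shCON, 33.3 times in shUSP16#1 and 41.7 times in shUSP16#2.

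The mevalonate group thus held 2 genes at least 2-fold lower of 7 in each hairpin library, where 5.79% of tested genes in shUSP16#1 and 19.5% in shUSP16#2 were. Its median log2 change was -0.46 in shUSP16#1 and -0.06 in shUSP16#2, and after centring on tested genes -0.29 and 0.31, so that in shUSP16#2 the direction of the median turned with centring. Summed over the group the level was 713, 614 and 705 TPM in shCON, shUSP16#1 and shUSP16#2, and without FDPS 373, 279 and 312 TPM.

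Of the enzymes from squalene on, SQLE, CYP51A1, MSMO1 and SC5D were far below shCON in each hairpin library. SQLE, the squalene monooxygenase that adds the first oxygen, was at 66.0 TPM in shCON, 23.0 TPM in shUSP16#1 and 24.5 TPM in shUSP16#2. CYP51A1, the lanosterol demethylase, was at 56.6, 18.0 and 18.4 TPM. MSMO1, a methyl sterol oxidase whose promoter is printed above, was at 34.0, 14.1 and 12.0 TPM. SC5D, a sterol desaturase, was at 33.7, 14.0 and 11.5 TPM. All 4 were at least 2-fold lower in each hairpin library, with log2 changes from -1.21 for SC5D to -1.60 for CYP51A1 in shUSP16#1 and from -1.39 for SQLE to -1.57 for CYP51A1 in shUSP16#2.

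DHCR7, the reductase of the last step to cholesterol, was at least 2-fold lower in shUSP16#2 and by less in shUSP16#1. Its level was 118 TPM in shCON, 69.3 TPM in shUSP16#1 and 57.1 TPM in shUSP16#2, with log2 changes of -0.76 and -1.03. NSDHL, a dehydrogenase of the complex that removes methyl groups after MSMO1, was at 54.9, 35.8 and 34.6 TPM. LSS, which cyclises oxidosqualene to lanosterol, was at 51.0, 38.9 and 36.8 TPM. FDFT1, the squalene synthase, was at 59.8, 47.8 and 48.4 TPM. These 3 were below shCON in each hairpin library by less than 2-fold.

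HSD17B7, the ketoreductase of the same demethylation complex, was at 14.1, 11.0 and 12.0 TPM. EBP, the sterol isomerase, differed least among the sterol enzymes, at 90.6, 83.7 and 86.2 TPM. TM7SF2, which reduces the double bond left after the CYP51A1 step, was the 1 sterol enzyme above shCON in each hairpin library, at 16.0, 25.3 and 27.4 TPM. It held 158% and 171% of the control level, while CYP51A1, which acts just before it, held 31.9% and 32.5%. The log2 changes of TM7SF2 were 0.63 and 0.74, and with the GC trend removed 0.24 and 0.21. Of the 11 genes, 4 were at least 2-fold lower in shUSP16#1 and 5 in shUSP16#2, against 5.79% and 19.5% of tested genes, with median log2 changes of -0.61 and -0.65, or -0.43 and -0.28 after centring on tested genes. Their summed level was 595, 381 and 369 TPM, so the hairpin libraries held 64.0% and 62.0% of the control.

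**Figure D3:**
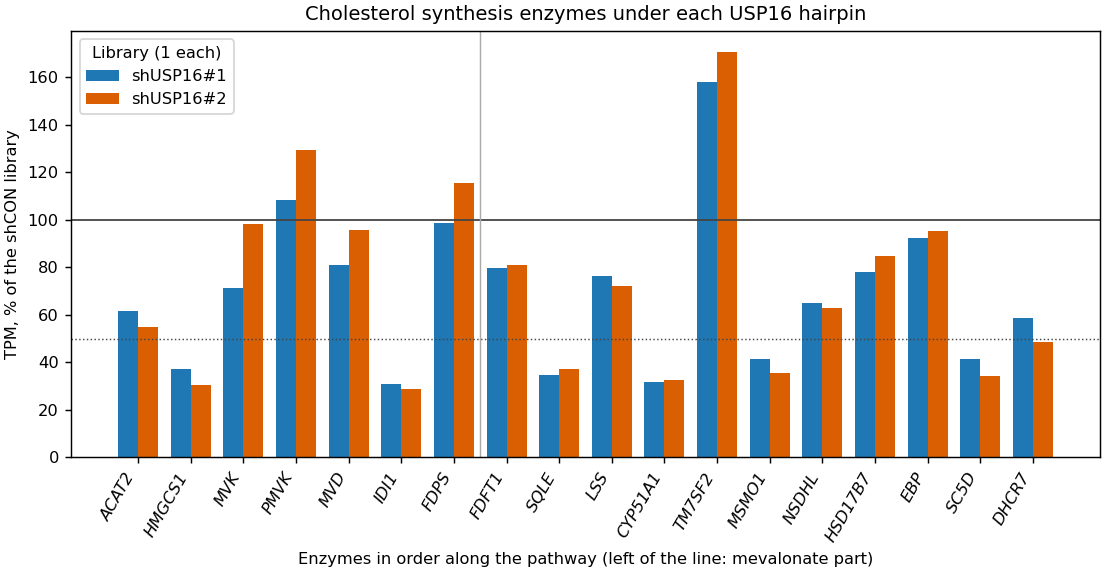
TPM of the 18 cholesterol synthesis enzymes in the shUSP16#1 and shUSP16#2 libraries as a percentage of the shCON library (y axis), ordered along the pathway (x axis), 1 library each, with the solid line at 100% and the dotted line at 50%. HMGCS1, IDI1, SQLE, CYP51A1, MSMO1 and SC5D lie between 28.7% and 41.5% in each hairpin library, and TM7SF2 lies at 158% and 171%.

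Among the regulators, SREBF1 and SREBF2 encode the SREBP precursors, and SCAP their escort protein. SREBF1 was at 25.2 TPM in shCON, 18.7 TPM in shUSP16#1 and 24.6 TPM in shUSP16#2. SREBF2, the member with the sterol regulatory element match, was at 32.04, 27.9 and 30.4 TPM. SCAP was at 36.1, 38.2 and 35.5 TPM. None of these 3 genes differed from shCON by 1.5-fold in a hairpin library, and the ratio of SREBF2 to SREBF1 was 1.27, 1.49 and 1.24.

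INSIG1, an endoplasmic reticulum anchor of SCAP and itself an SREBP target, was at 25.6 TPM in shCON, 6.02 TPM in shUSP16#1 and 10.8 TPM in shUSP16#2. INSIG2, its paralogue, was at 8.06, 8.40 and 5.29 TPM. INSIG1 was therefore 3.18 times as abundant as INSIG2 in shCON, 0.717 times in shUSP16#1 and 2.03 times in shUSP16#2. The log2 change of INSIG1 in shUSP16#1, -1.92, was the lowest of any member in that library, and in shUSP16#2 it was -1.18.

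STARD4, which carries cholesterol between membranes, was at 5.34 TPM in shCON, 1.48 TPM in shUSP16#1 and 0.93 TPM in shUSP16#2. These are 27.7% and 17.4% of shCON, at low levels, and its log2 change of -1.72 was the lowest of any member in shUSP16#2. With the GC trend removed the changes of STARD4 were -0.93 and -0.98, and DHCR7 was the lowest in shUSP16#2, at -1.42. TMEM97, a sterol binding membrane protein, was at 23.7, 10.6 and 8.95 TPM. INSIG1, STARD4 and TMEM97 were the 3 of the 7 regulators and sterol binding proteins at least 2-fold lower in each library. The share of tested genes was 5.79% in shUSP16#1 and 19.5% in shUSP16#2. The group's median log2 change was -0.41 in shUSP16#1 and -0.53 in shUSP16#2, or -0.24 and -0.16 after centring on tested genes. With the hairpins averaged for each gene first, the median of this group was -0.24 and that of the mevalonate group -0.24, and centring turned both above 0, to 0.03 and 0.03.

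Of the fatty acid enzymes, FASN, ACLY and SCD had their lowest level in shUSP16#1. FASN, the fatty acid synthase, was at 55.3 TPM in shCON, 32.9 TPM in shUSP16#1 and 50.5 TPM in shUSP16#2. ACLY, which makes cytosolic acetyl-CoA from citrate, was at 69.2, 38.4 and 48.0 TPM. SCD, the stearoyl-CoA desaturase, was at 57.4, 26.4 and 33.1 TPM, with log2 changes of -1.09 and -0.78. ACACA, the carboxylase that makes malonyl-CoA, had its lowest level in shUSP16#2, at 20.2, 10.5 and 9.20 TPM, with log2 changes of -0.88 and -1.05.

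FADS1 and FADS2, desaturases that make polyunsaturated fatty acids, are neighbours on chromosome 11. FADS1 was at 64.0 TPM in shCON, 31.7 TPM in shUSP16#1 and 31.6 TPM in shUSP16#2, which is 49.5% and 49.3% of shCON and falls just short of 2-fold on the log2(TPM + 1) scale. FADS2 was at 78.1, 76.0 and 64.3 TPM. The ratio of FADS1 to FADS2 was 0.820 in shCON, 0.417 in shUSP16#1 and 0.490 in shUSP16#2.

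ELOVL6, which elongates palmitate to stearate, was the member in which the hairpin libraries lay on opposite sides of shCON and at least 2-fold apart. FDPS, SCAP and INSIG2 also had shCON between the hairpin libraries, by smaller margins. Its level was 2.60 TPM in shCON, 1.48 TPM in shUSP16#1 and 10.7 TPM in shUSP16#2. In shUSP16#2 it was at 411% of shCON and 7.22 times the level in shUSP16#1. It was the 1 member at least 2-fold higher in shUSP16#2 than in shUSP16#1, against 1.61% of tested genes, and no member was at least 2-fold lower, against 3.58%. ELOVL6 (ENSG00000170522) lies on the reverse strand of chromosome 4, at chr4:110045846-110199199 of GRCh38.

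The median log2 change of the 7 fatty acid enzymes was -0.83 in shUSP16#1 and -0.52 in shUSP16#2, or -0.66 and -0.15 after centring on tested genes. Their summed level was 347, 217 and 247 TPM, or 62.7% and 71.3% of shCON.

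Transcript GC content moved with these differences. Across the 32 members the rank correlation of log2 change with the GC content of the longest transcript was 0.613 in shUSP16#1 and 0.698 in shUSP16#2, beside 0.535 and 0.632 across 13296 tested genes, where genes share a library and are not replicates. The members at least 2-fold lower in each hairpin library were poor in G and C, from 34.2% for STARD4 to 46.5% for SQLE, while FDPS (56.0%), PMVK (59.5%) and TM7SF2 (64.2%) were rich in them. The members as a whole were not, with a median GC content of 50.1% against 49.1% for tested genes. The part of GC content in the differences between libraries was not tested.

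Within classes of GC content most members lay below the median of the tested genes of their class. In the class of 40% to 45%, HMGCS1, IDI1, CYP51A1, HSD17B7 and ELOVL6 had a median log2 change of -1.36 in shUSP16#1 and -1.57 in shUSP16#2, where the 2700 tested genes had -0.47 and -0.78. Of these 5 members, 4 lay below the class median in shUSP16#1 and 3 in shUSP16#2. In the class of 45% to 50%, which holds FDFT1, SQLE, INSIG1, TMEM97, SCD and ACACA, the medians were -1.10 and -1.12 for the members and -0.26 and -0.50 for 2367 tested genes. In the class of 55% to 60%, with MVK, PMVK, FDPS, LSS, DHCR7, SREBF2 and FADS2, they were -0.19 and -0.07 for the members and 0.09 and 0.02 for 2040 tested genes. The class below 40% had 3 of its 4 members under the class median in each hairpin library, and INSIG2 was the exception in each.

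**Figure D4:**
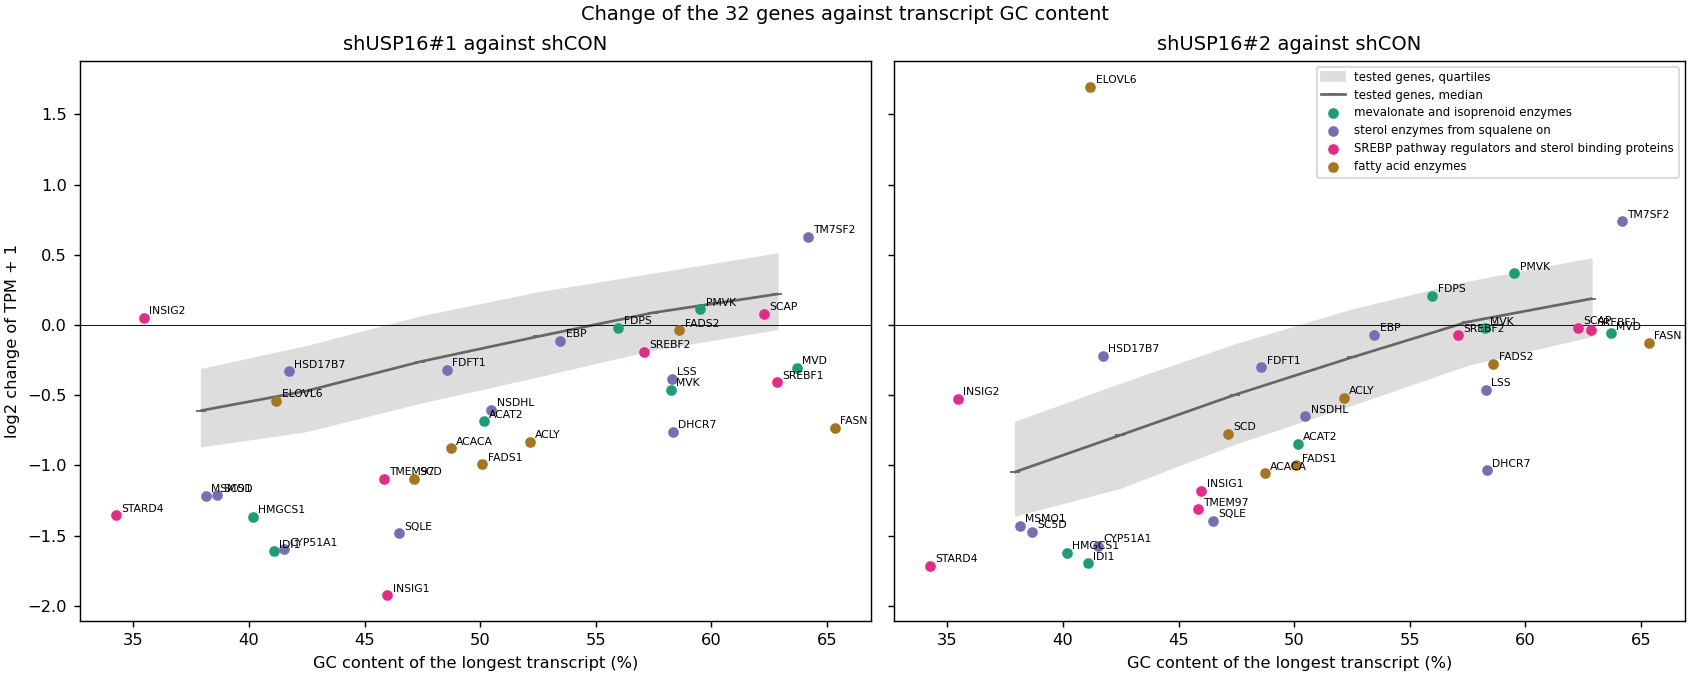
Log2 change of TPM + 1 (y axis) of each member against the GC content of its longest transcript in percent (x axis) in shUSP16#1 (left) and shUSP16#2 (right), with the line and band giving the median and quartiles of tested genes in 6 classes of GC content. The median of tested genes runs from -0.61 below 40% to 0.22 above 60% in shUSP16#1 and from -1.05 to 0.19 in shUSP16#2. IDI1, CYP51A1, SQLE and HMGCS1 are among the members below the band in each panel, where the lowest quartile of tested genes also lies.

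With the GC trend removed, 8 members (25%) were at least 2-fold lower in shUSP16#1 against 3.12% of tested genes, and 9 (28.1%) in shUSP16#2 against 9.99%. None was higher in shUSP16#1 against 2.21%, and ELOVL6 was higher in shUSP16#2 against 1.96%. Genes at least 2-fold lower in each library on this scale were IDI1, SQLE, CYP51A1, DHCR7, INSIG1, TMEM97 and FADS1. DHCR7 moved from -0.76 and -1.03 to -1.02 and -1.42, whereas MSMO1 moved from -1.22 and -1.43 to -0.77 and -0.75, and FASN from -0.73 and -0.13 to -1.14 and -0.71. PMVK moved from 0.11 and 0.37 to -0.17 and -0.12, and FDPS from -0.02 and 0.21 to -0.31 and -0.21. The median of the members was -0.76 in shUSP16#1 and -0.70 in shUSP16#2, beside -0.18 and -0.37 for tested genes. Of the 32 members, 27 lay below the median tested gene in shUSP16#1 and 24 in shUSP16#2 after this step.

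When the GC trend was removed and the values were then also centred, 4 members, IDI1, SQLE, CYP51A1 and INSIG1, were at least 2-fold lower in shUSP16#1 (12.5%) against 1.84% of tested genes. In shUSP16#2 only DHCR7 was (3.13%), against 2.64%, which is a share near the background. None was higher in shUSP16#1 against 3.3%, and ELOVL6 was higher in shUSP16#2 against 4.09%.

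Neighbouring and overlapping genes limit some members, and the strand setting of the counting is not given in the sources used here. ACAT2 shares 397 exonic bases with TCP1 on the opposite strand, which was at 167, 112 and 94.9 TPM. MVK shares 306 bases with MMAB, a gene of cobalamin metabolism at 62.7, 39.9 and 51.7 TPM, and its levels were in the same order over the libraries. ACLY shares 156 bases with AC125257.2, which was at 163, 94.9 and 49.8 TPM, and FADS1 shares 490 bases with FADS2. TMEM97 shares 361 bases with IFT20, at 25.6, 28.1 and 26.3 TPM. On the same strand, CYP51A1 shares 2844 bases, 79.4% of its exonic bases, with AC000120.2, which was at 0, 0.79 and 0.14 TPM. Gene copies named after a member numbered 17 for 6 members, and none exceeded 0.84 TPM in a library. The part of these overlaps in the members' values was not tested.

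A CCAAT box was found in most members with a promoter, beside 39.7% of all genes, and its relation to the changes was not tested. Of the members at least 2-fold lower in shUSP16#1, 8 of the 9 with a promoter held one, against 13 of the other 19. For shUSP16#2 it was 9 of 10 against 12 of 18. The 1 lower member without a CCAAT box was CYP51A1 in each case, and INSIG2, PMVK, SCAP, SREBF1, FADS1 and ELOVL6 were the others without one.

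Neighbouring pathways give the members a frame, and each was described by a list of genes chosen by function. The counts below are to be read against the 5.79% of tested genes at least 2-fold lower in shUSP16#1 and the 19.5% in shUSP16#2, and in shUSP16#2 those of the 6 lists were near or below this background. Isoprenoid branch enzymes, which use farnesyl diphosphate for other products than sterols, had 0 of 10 genes at least 2-fold lower in shUSP16#1 and 2 in shUSP16#2, with median log2 changes of -0.40 and -0.62. The 2 genes were GGPS1, the geranylgeranyl diphosphate synthase, at 7.78, 5.68 and 3.08 TPM, and NUS1, a subunit of the dolichol-making prenyltransferase, at 33.4, 17.5 and 14.5 TPM. The list of SREBP processing and sterol-regulated degradation had 0 and 2 of 10, with medians of -0.43 and -0.66. These were MBTPS2, the protease that makes the second cut of SREBPs, at 13.3, 7.26 and 4.52 TPM, and C12orf49, also called SPRING1, at 18.5, 13.5 and 8.71 TPM.

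Of the 14 genes for LXR signalling, cholesterol storage and transport, 11 were tested, and 1 was at least 2-fold lower in shUSP16#1 and 2 in shUSP16#2, with medians of -0.13 and -0.45. SOAT1, which esterifies cholesterol for storage, was at 9.94 TPM in shCON, 3.98 TPM in shUSP16#1 and 1.62 TPM in shUSP16#2. OSBP, which exchanges cholesterol for a phosphoinositide between membranes, was at 31.2, 21.6 and 14.7 TPM. SOAT1 was at least 2-fold lower in each hairpin library, while ABCA1, ABCG1 and SOAT2 were under the minimum level.

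Among 19 tested genes for other steps of fatty acid synthesis, elongation and activation, 2 were at least 2-fold lower in shUSP16#1 and 3 in shUSP16#2, with medians of -0.30 and -0.65. ACACB, the mitochondrial counterpart of ACACA, was at 8.41, 2.75 and 3.82 TPM. ACSL3 and ACSL4, which activate fatty acids to their CoA esters, were at 42.0, 18.1 and 20.8 TPM and at 17.6, 8.47 and 3.65 TPM. HSD17B12, the ketoacyl-CoA reductase of elongation, was at 56.2, 28.2 and 26.8 TPM. ELOVL5, an elongase of polyunsaturated fatty acids that falls outside the naming rule and was added after its values were seen, was at 54.3, 31.1 and 26.2 TPM. ACACB and ACSL3 made the count in shUSP16#1, and ACSL4, HSD17B12 and ELOVL5 that in shUSP16#2.

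Glycerolipid synthesis had 0 and 2 of 8 genes at least 2-fold lower, with medians of -0.20 and -0.38. These were GPAM, the first acyltransferase of the pathway, at 3.68, 1.60 and 0.75 TPM, and LPIN1, a phosphatidate phosphatase, at 7.66, 4.04 and 3.03 TPM. Fatty acid oxidation, the opposite process, had 0 and 1 of 14 lower and 0 and 1 higher (background for higher, 2.83% and 2.8%), with medians of 0.01 and -0.14, both above those of tested genes. ACADM, the medium-chain acyl-CoA dehydrogenase, was at 17.6, 8.92 and 6.04 TPM, and ACADS, the short-chain enzyme, at 8.16, 13.7 and 17.8 TPM.

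**Figure D5:**
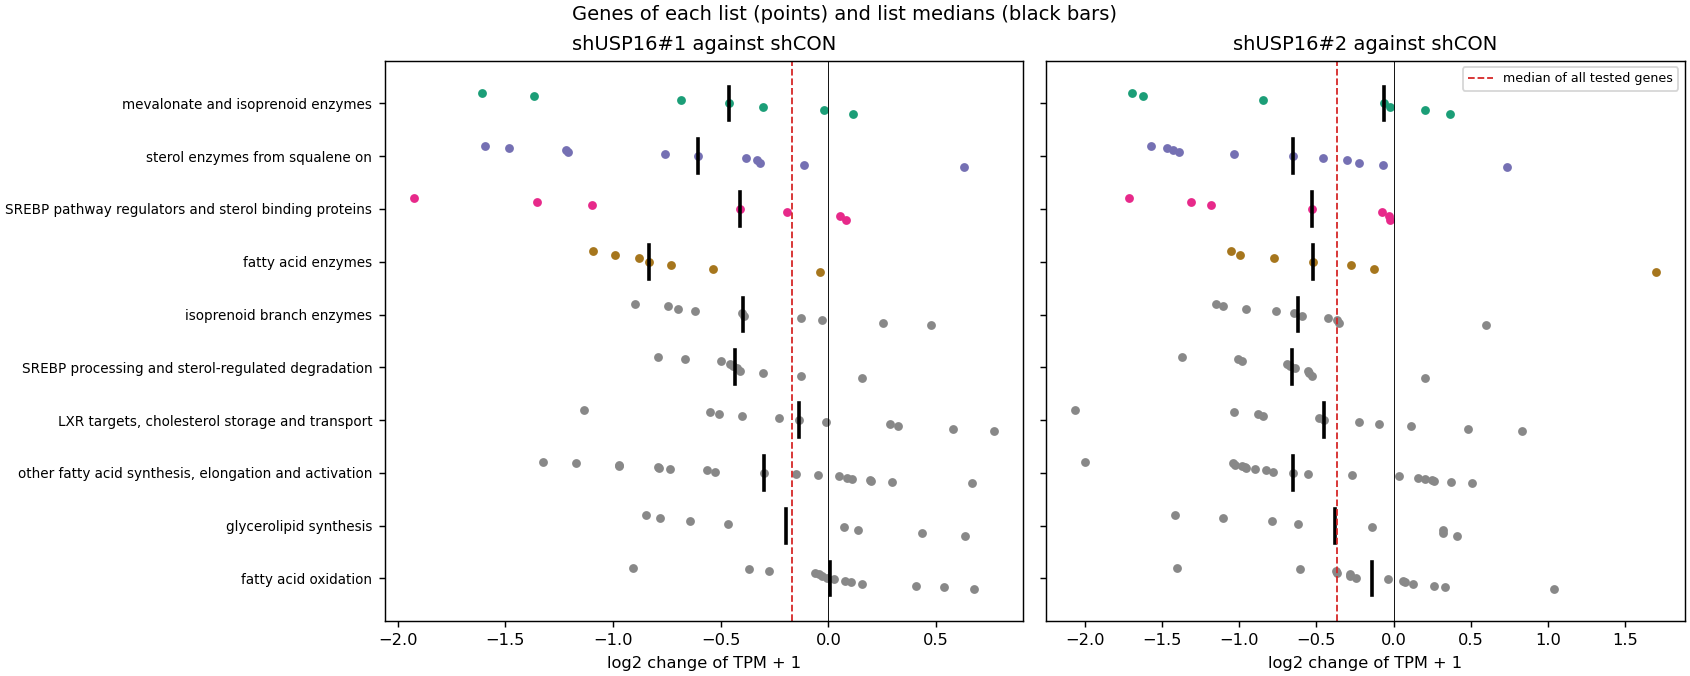
Log2 change of TPM + 1 (x axis) of each tested gene (points) in the 4 role groups of the members (coloured) and the 6 other lists (grey), in shUSP16#1 (left) and shUSP16#2 (right), with black bars at the list medians and a dashed line at the median of all tested genes. In shUSP16#1 all 4 role groups have medians below the dashed line at -0.17, from -0.41 to -0.83. The isoprenoid branch, SREBP processing, other fatty acid and glycerolipid lists lie below it too, from -0.20 to -0.43. The LXR list (-0.13) and fatty acid oxidation (0.01) lie above it. In shUSP16#2 the mevalonate group lies above the line at -0.37, at -0.06, and the other role groups lie from -0.52 to -0.65. The grey lists there lie below the line, from -0.38 to -0.66, save fatty acid oxidation at -0.14.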

How the data were processed

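Total RNA of 3 PC3 cultures (shCON, shUSP16#1 and shUSP16#2) was extracted with Trizol and prepared with an Illumina TruSeq RNA kit. The authors deposited 1 table of TPM per gene, obtained through the Majorbio Cloud Platform, and the submitters' processing notes name CASAVA, HISAT2 and hg19. The counting tool is not given in the sources used here, and 58516 of 60930 gene identifiers matched GENCODE release 29 on GRCh38. TPM keeps no depth, so no interval for counting error was given. The table's 3 repeated columns were not used.

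Of entries sharing a name, the one with the highest mean was kept (1211 left out), and 13637 genes averaging 1 TPM or more were compared on log2(TPM + 1). A gene was called at a change of at least 2-fold. GC content of the longest transcript was known for 13296 genes, and its trend was taken out as the median change within each of 50 bins, less the overall median. Text names all members, USP16 and, per other list, up to 4 genes past 2-fold by mean change. Members and lists were chosen with earlier results of these data known. Alternatives were a pseudocount of 0.1, centring, no minimum, a minimum of 5 TPM, 1.5-fold, protein-coding genes only, GC trend removal, each hairpin left out and a shorter motif. Scripts were tested on simulated data. Python 3.11.15, numpy 2.4.6, pandas 2.3.3 and matplotlib 3.10.9 were used.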

Additional observations from a re-analysis of the deposited data

Results flagged for a closer look

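ELOVL6 was singled out because the hairpin libraries lay on opposite sides of shCON and at least 2-fold apart. Its log2 change was -0.54 in shUSP16#1 and 1.70 in shUSP16#2, a difference of 2.24 between the hairpin libraries, and its level was 2.60 TPM in shCON, 1.48 TPM in shUSP16#1 and 10.7 TPM in shUSP16#2. With 1 library per condition the difference was not tested.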

How the results depend on the processing

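No paired analysis was possible because there was a single library per condition. At 1.5-fold in place of 2-fold, 17 members were lower in shUSP16#1 against 23.2% of tested genes, and 1 was higher against 8.72%. In shUSP16#2, 2 were higher against 7.32%. Centring on the median of tested genes left 7 members at least 2-fold lower and 2 higher in shUSP16#2, against 7.76% and 6.45% of tested genes. The member median in that library was then -0.15. With the hairpins averaged, centring moved the group medians to 0.027 (mevalonate, from -0.24), -0.36 (sterol, from -0.63), 0.0329 (regulators, from -0.24) and -0.41 (fatty acid, from -0.68). Removal of the GC trend moved the mevalonate median to -0.64 and the regulator median to -0.73. The GC trend removed and centred was an alternative chosen after seeing the data. It left 4 members at least 2-fold lower in shUSP16#1 against 1.84% of tested genes, and 1 in shUSP16#2 against 2.64%. The member median in shUSP16#2 was then -0.32. A minimum of 5 TPM left 0 members at least 2-fold higher in shUSP16#2, since ELOVL6 was under it. Without the one or the other hairpin library, the medians ranged from -0.46 to -0.0593 (mevalonate) and from -0.53 to -0.41 (regulators). The shorter sterol regulatory element gave 3 members in place of 1. The other counts stayed within 1.5 times their values. Of single members, a pseudocount of 0.1 and no minimum moved 0 of 32, centring moved 17, GC trend removal 18, and leaving out shUSP16#1 or shUSP16#2 moved 11 or 10. The cause of these moves was not tested. With 1 library per condition and no depth, neither the spread between cultures nor counting error is known.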
